A study of Mus musculus with 12 samples.

Results

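The genes described here are 43 genes of DNA replication and mitosis, taken as a named list from the 22794 genes of the count table and split by role into 17 S-phase and 26 mitotic genes. The S-phase genes act in G1, at the start of S phase or in DNA synthesis. The mitotic genes act mainly in G2 and M phase, and Ccna2 among them also acts in S phase. All 43 were in the table, and all 43 passed the filter on low counts that left 14412 genes to test. The libraries came from isolated cardiomyocytes of wild-type (WT) C57BL6 mice, killed 16 weeks after surgery. The 4 groups had 3 libraries each: nephrectomy with JV101 (NX JV101), nephrectomy with saline (NX saline), sham surgery with JV101 (sham JV101) and sham surgery with saline (sham saline). NX is 5/6 nephrectomy, a removal of most kidney tissue that leaves a chronically reduced kidney function. The labels name the injected agent only as JV101, under a series title on telomere recapping by gene therapy in cardio-renal syndrome type 4, in which kidney disease precedes heart disease. They give neither the age nor the sex of the mice, nor whether libraries came from single or pooled animals.

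A cell enters the cycle when D-type and E-type cyclins activate their kinases and release the E2F transcription factors, which switch on genes for the replication machinery. Later, B-Myb and FOXM1 switch on the genes of mitosis, whose promoters often carry CCAAT boxes and a cell cycle homology region (CHR). Cardiomyocytes of mice largely leave the cycle soon after birth, so adult heart cells express these genes little, while the endothelial cells, fibroblasts and immune cells of the heart can still divide.

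Each library held 26407125 to 33834238 counts, of which mitochondrially encoded genes took 36.7% to 69%. The 8 cardiomyocyte markers were present in every library and summed to 31800 to 47200 CPM (counts scaled to library size, with trimmed mean of M values factors) in NX JV101, 38500 to 53000 in NX saline, 31400 to 60100 in sham JV101 and 47000 to 57200 in sham saline. Other cell types of the heart were present as well. The 8 endothelial markers, none of them at 0 throughout, summed to 700 to 1350 CPM in NX JV101, 464 to 1420 in NX saline, 255 to 1300 in sham JV101 and 505 to 797 in sham saline. In such bulk RNA, fewer cells of a type and less RNA per cell cannot be told apart. The labels do not say that replicates were separate animals, so every p-value below measures only the spread between these libraries.

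Levels of the 43 genes were compared with each other as FPKM, which accounts for gene length. Ccnd1, the cyclin D1 gene, had the highest mean FPKM over the 12 libraries, 17.5, and ranged between 6.48 and 32.1. Pcna, the sliding clamp of the replication fork, had a mean FPKM of 16.3, and Ccnd2, a second D-type cyclin, 9.23. All other members were well below these 3.

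In the rest of the S-phase list, Rrm1, the large subunit of ribonucleotide reductase, had a mean FPKM of 2.62 and Cdk2, the kinase of cyclins E and A, 2.34. The genes of the MCM helicase ring, Mcm2 to Mcm7, were at 1.34 for Mcm2, 1.62 for Mcm3, 1.32 for Mcm4, 0.766 for Mcm5, 1.4 for Mcm6 and 1.95 for Mcm7. Lower still were Rrm2, the regulated subunit of ribonucleotide reductase, at 0.646, the E cyclin genes Ccne2 at 0.333 and Ccne1 at 0.277, the helicase cofactor Cdc45 at 0.316, the transcription factor E2f1 at 0.267 and the thymidylate synthase gene Tyms at 0.203. The D-type cyclins and the clamp thus stood far above the other S-phase genes.

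The 26 mitotic genes had mean FPKM values between 0.0686 for Cenpe, a kinetochore motor, and 0.953 for Cenpf, a large kinetochore protein. Their median of mean FPKM was 0.221, against 1.34 for the S-phase genes and 2.28 for all tested genes. After Cenpf came Ube2c and Cdc20, which act with the anaphase-promoting complex, at 0.738 and 0.66, then Top2a, topoisomerase IIα, at 0.476, and Mki67, the Ki-67 chromosome coat protein, at 0.378. Among the motors and spindle proteins, mean FPKM was 0.338 for Kif23 and 0.276 for Kif20a (cytokinesis kinesins), 0.323 for the midzone bundler Prc1, 0.229 for Kif11, 0.216 for Tpx2, 0.158 for the microtubule binder Nusap1, 0.148 for the cleavage furrow protein Anln, 0.122 for the passenger protein survivin (Birc5) and 0.105 for Hmmr. The mitotic cyclins and kinases lay in the same range, with 0.324 for Ccnb2, 0.249 for Ccna2, 0.231 for the Polo-like kinase Plk1, 0.222 for Cdk1, 0.221 and 0.207 for the Aurora kinases Aurka and Aurkb, and 0.166 for Ccnb1. Also low were the checkpoint genes Bub1b at 0.168 and Bub1 at 0.073, the transcription factor Foxm1 at 0.15 and Gtse1 at 0.0915.

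The typical mitotic gene had few counts, with a median of mean counts of 20.8 a library, against 146 for the S-phase genes and 282 for all tested genes. The depth behind single mitotic genes was therefore small: Gtse1, a microtubule-associated protein of G2, had between 0 and 21 counts a library, and Hmmr, a spindle protein, between 1 and 38.

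**Figure D1:**
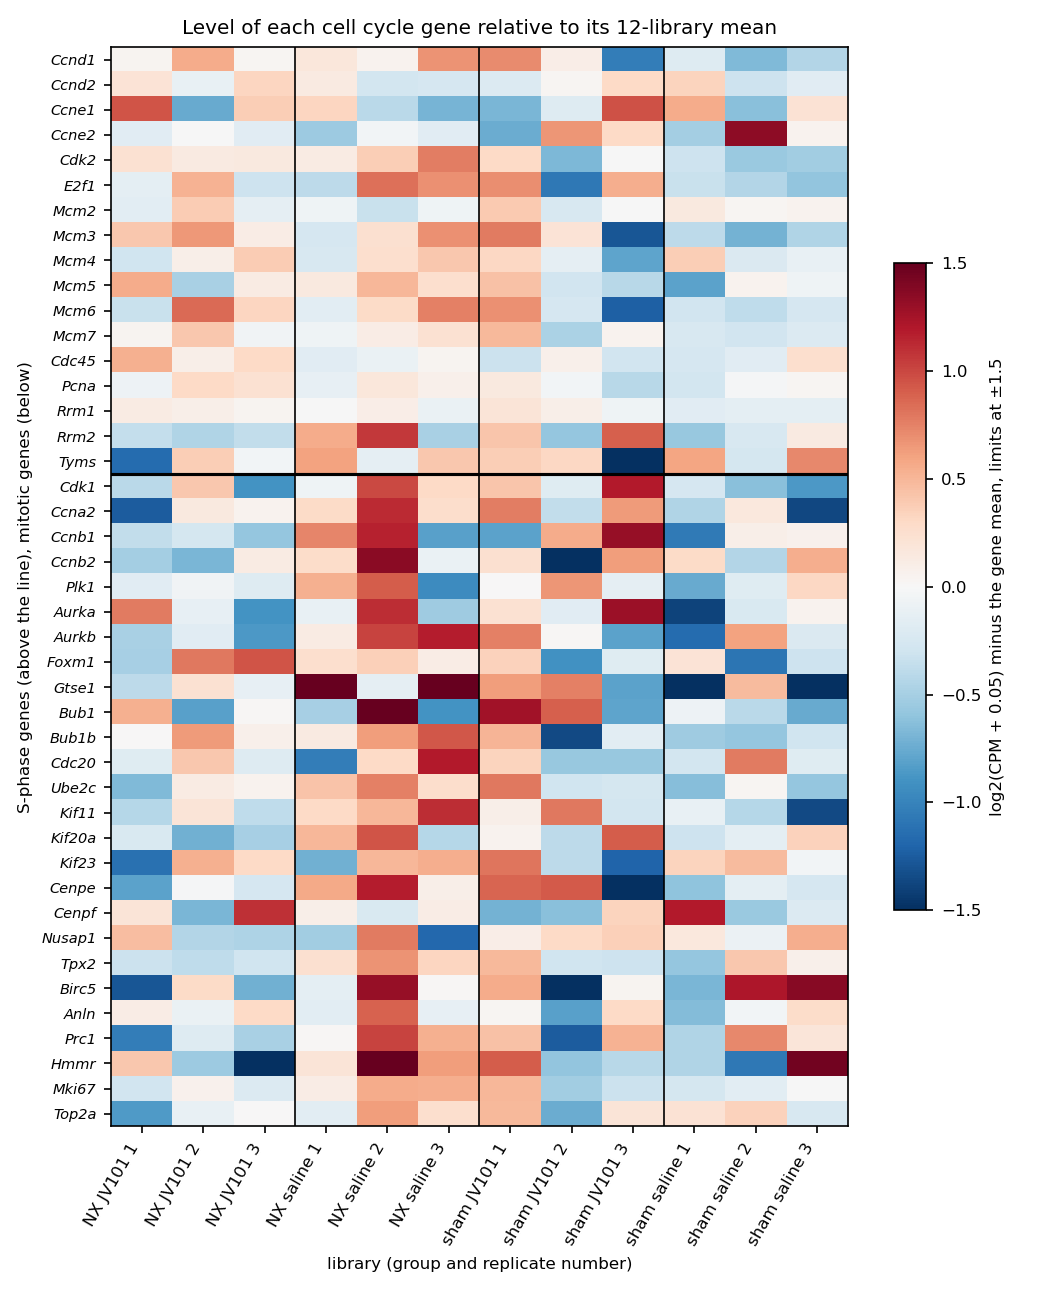
Heat map of the 43 cell cycle genes (rows, S-phase above the line, mitotic below) in the 12 libraries (columns, by group). Colour gives log2(CPM + 0.05) as a difference from the mean of that gene across all 12 libraries, red above and blue below. NX saline replicate 2 is red in most mitotic rows, and Cenpf departs from the other mitotic genes.

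Many mitotic genes were highest in 1 library. NX saline replicate 2 had the highest CPM of 13 of the 26 mitotic genes (50%), while it had the highest value of 4.29% of all tested genes, and it lay above the 12-library median for 24 of the 26. These 13 genes covered cyclins and kinases (Ccna2, Ccnb2, Plk1), the checkpoint kinase Bub1, spindle and cytokinesis genes (Kif20a, Cenpe, Nusap1, Tpx2, Anln, Prc1, Hmmr) and both Mki67 and Top2a. Of the 17 S-phase genes NX saline replicate 2 was highest for 2, Rrm2 and E2f1 (11.8%), and it lay above the median for 12 (70.6%, against 51.8% of all tested genes).

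The mean deviation of the 26 mitotic genes from their 12-library means, on a log2 scale, summarised each library. In NX JV101 it was -0.33, -0.06 and -0.23 in replicates 1 to 3, and in NX saline 0.11, 0.81 and 0.2. In sham JV101 it was 0.38, -0.31 and 0, and in sham saline -0.37, -0.04 and -0.14. All 3 NX saline libraries were thus above all NX JV101 and all sham saline libraries, whereas sham JV101 overlapped every other group. The group means were -0.21 ± 0.14 in NX JV101, 0.37 ± 0.38 in NX saline, 0.02 ± 0.34 in sham JV101 and -0.18 ± 0.17 in sham saline (SD, n = 3 each).

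For the 17 S-phase genes the same mean deviation was 0.08 ± 0.07 in NX JV101, 0.12 ± 0.1 in NX saline, -0.05 ± 0.25 in sham JV101 and -0.15 ± 0.06 in sham saline (SD, n = 3 each). Here both NX groups lay above all sham saline libraries, which held -0.14, -0.21 and -0.09, and sham JV101 spread most, with 0.23 in replicate 1 and -0.25 in replicate 3. In NX JV101 the S-phase mean thus stood near that of NX saline and the mitotic mean near that of sham saline, a contrast between the arms that was not tested.

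**Figure D2:**
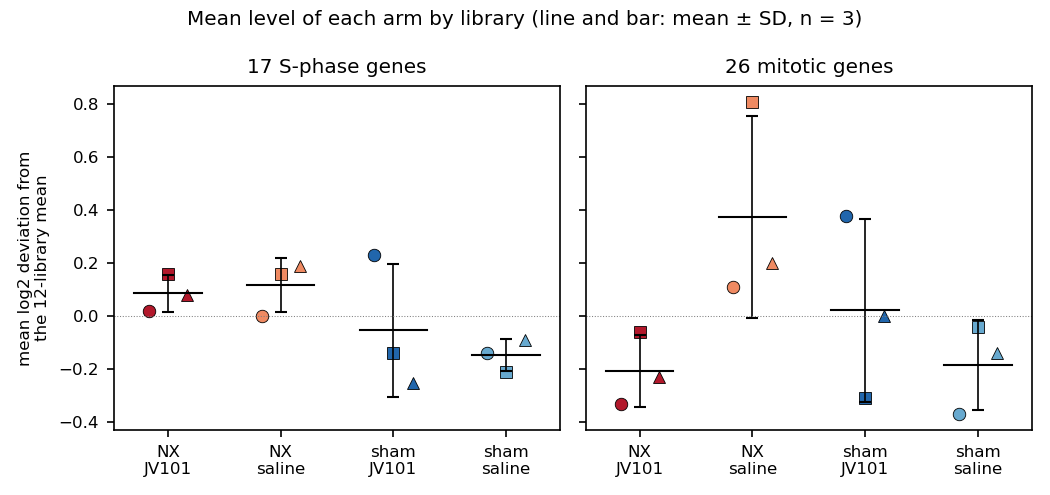
Mean log2 deviation of the S-phase (left) and mitotic (right) genes from their 12-library means, 1 point per library (circle, square and triangle for replicates 1, 2 and 3), with group mean and SD (n = 3). NX saline replicate 2 stands at 0.81 in the mitotic panel, and the other 11 libraries lie between -0.37 and 0.38.

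Markers of other cell types differed between the libraries and in part between the groups. The 8 immature myeloid markers, genes of granulocyte precursors in bone marrow, summed to 10, 3.3 and 0.0249 CPM in NX JV101, 5.29, 28.9 and 18.1 in NX saline, 3.53, 2.12 and 12.8 in sham JV101 and 1.51, 3.18 and 10.2 in sham saline. Their highest sum fell in NX saline replicate 2, where Ltf (lactoferrin) alone gave 23.4 CPM. Mpo and Elane, the defining granule enzymes of early precursors, stood at 1.61 and 0.977 CPM there and each was at 0 in 6 of the 12 libraries. Mpo was highest in NX saline replicate 1, at 1.96 CPM with Elane at 0.507, and had 1.33 CPM in sham saline replicate 2. Ltf also made up most of the sum in NX saline replicate 3 (18 CPM), sham JV101 replicate 3 (12.8), sham saline replicate 3 (10.2) and NX JV101 replicate 1 (8.38). In all of these but NX JV101 replicate 1, Mpo and Elane were at 0. The neutrophil sum ranged over 5.14 to 15 CPM in NX JV101, 12.7 to 29 in NX saline, 2.85 to 46.4 in sham JV101 and 6.5 to 7.97 in sham saline. Sham JV101 replicate 1, which held the highest neutrophil sum, had the second highest mitotic mean. The next highest neutrophil sums, 29 and 23.8 CPM, fell in NX saline replicates 1 and 2, with mitotic means of 0.11 and 0.81. The 8 B cell markers summed to 0.972 to 2.29 CPM in NX JV101, 3.71 to 18.7 in NX saline, 2.07 to 9.13 in sham JV101 and 4.32 to 19.5 in sham saline. The 8 mesothelial markers, of the outer lining of the heart, summed to 35.2 to 42.2 CPM in NX JV101, 56.3 to 119 in NX saline, 39.3 to 56.8 in sham JV101 and 65.2 to 82.6 in sham saline. Both sums were lower in every NX JV101 library than in every NX saline library, as was the mitotic mean, and the neutrophil sum was higher in every NX saline library than in every sham saline library. Most lists did not separate these groups. The macrophage sum was 161 to 434 CPM in NX JV101 and 218 to 293 in NX saline. The T cell, erythroid, endothelial, fibroblast, and pericyte and smooth muscle sums also overlapped between these 2 groups. None of the immature myeloid, neutrophil, B cell or mesothelial markers was at 0 throughout, and the part of these cells in the mitotic values was not tested.

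The comparison of NX saline with sham saline asks what nephrectomy did in mice given no agent. Of the mitotic genes, 22 of 26 (84.6%) had a log2 fold change above 0, with a median of 0.57, and of the S-phase genes 11 of 17 (64.7%), with a median of 0.15. Across all 14412 tested genes 52.9% were above 0 and the median was 0.02. No member passed edgeR's quasi-likelihood test at an adjusted p of 0.05, nor did any gene at all (0% of those tested). At an unadjusted p under 0.05 there were 4 members, 1 S-phase and 3 mitotic, against 524 genes in all (3.64%), and DESeq2 and limma on FPKM also passed 0 members.

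Among the S-phase genes Cdk2 had 6.34, 7.5 and 9.97 CPM in NX saline, against 4.68, 3.93 and 4.02 CPM in sham saline. Every NX saline library was above every sham saline library, with a log2 fold change of 0.91 (SE 0.25, unadjusted p = 0.00357, adjusted p = 0.994 by edgeR). Ccnd1 had 67.7, 62.8 and 96.5 CPM in NX saline, against 52.7, 38.1 and 44.7 CPM in sham saline, a log2 fold change of 0.74 (SE 0.35, unadjusted p = 0.0591 by edgeR). Its groups did not overlap either.

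Mcm3, a subunit of the helicase ring, had 3.68, 5.17 and 7.1 CPM in NX saline, against 3.33, 2.66 and 3.19 CPM in sham saline, a log2 fold change of 0.79 (SE 0.43, unadjusted p = 0.0904 by edgeR). E2f1, the factor that drives many replication genes, had 0.539, 1.32 and 1.19 CPM in NX saline, against 0.563, 0.52 and 0.464 CPM in sham saline, and here 1 NX saline library lay inside the sham range. Its log2 fold change was 0.97 (SE 0.53, unadjusted p = 0.0942 by edgeR).

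In all, 7 S-phase genes were higher in every NX saline library than in every sham saline library, 41.2% of the list against 4.9% of all tested genes: Ccnd1, Cdk2, Mcm3, Mcm5, Mcm6, Mcm7 and Rrm1. In the other direction stood Mcm2 alone, at 4.12, 3.42 and 4.12 CPM in NX saline, against 4.78, 4.39 and 4.49 CPM in sham saline (5.88% of the list against 5.92% of all tested genes). The Mcm2 share was at the background, and its log2 fold change was -0.23 (SE 0.22, unadjusted p = 0.322 by edgeR). The other ring subunits Mcm3, Mcm6, Mcm5, Mcm7 and Mcm4 were fitted at 0.79, 0.65, 0.55, 0.35 and 0.12. On the deposited FPKM Ccnd1 and Cdk2 were still without overlap, and Mcm2, Mcm3, Mcm5, Mcm6, Mcm7 and Rrm1 overlapped. Against the direction of most of the list was also Ccne2, with a log2 fold change of -0.75 (SE 0.51, unadjusted p = 0.172 by edgeR), for which sham saline replicate 2 held 2.71 CPM and all other libraries 0.602 to 1.67 CPM.

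Of the mitotic genes Kif11, the motor that pushes spindle poles apart, had 1.27, 1.47 and 2.27 CPM in NX saline, against 0.947, 0.75 and 0.371 CPM in sham saline. These values rested on 40, 51 and 42 counts in NX saline and 37, 13 and 12 counts in sham saline, and the log2 fold change was 1.26 (SE 0.45, unadjusted p = 0.0166 by edgeR). Cdk1, the kinase that starts mitosis, had 0.792, 1.7 and 1.03 CPM in NX saline, against 0.691, 0.52 and 0.433 CPM in sham saline, a log2 fold change of 1.09 (SE 0.51, unadjusted p = 0.0538 by edgeR). Neither gene's groups overlapped.

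Bub1b, the BubR1 checkpoint protein, had 0.602, 0.862 and 1.08 CPM in NX saline, against 0.358, 0.346 and 0.433 CPM in sham saline, again without overlap (log2 fold change 1.14, SE 0.52, unadjusted p = 0.0485 by edgeR). Gtse1 had 21, 6 and 15 counts in NX saline, against 1, 5 and 0 counts in sham saline. Its log2 fold change of 2.68 (SE 1.07, unadjusted p = 0.0288 by edgeR) was the highest of the 43 and rested on 6 counts in the whole sham saline group. Without sham saline replicate 2, which left 1 and 0 counts in that group, it was 4.97, and leaving out each other library in turn gave 1.98 to 3.1.

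The mitotic genes with no overlap numbered 7, 26.9% of the list against 4.9% of all tested genes: Cdk1, Ccna2, Bub1b, Ube2c, Kif11, Cenpe and Mki67, all higher in NX saline, and none was lower without overlap (0% against 5.92%). On the deposited FPKM Bub1b, Ube2c and Kif11 were still without overlap, and Cdk1, Ccna2, Cenpe and Mki67 overlapped. By role, all 9 cyclins, kinases and regulators had log2 fold changes above 0, with a median of 0.96, as had the 4 checkpoint and anaphase genes, with a median of 1.01. The 11 spindle, kinetochore and cytokinesis genes were mixed, with 7 above 0 and a median of 0.41, and the 4 below 0 were Kif23, Cenpf, Nusap1 and Birc5. One library carried much of the mitotic value: without NX saline replicate 2 the mitotic median was 0.23 and 17 of 26 genes were above 0. The S-phase median was 0.31 without sham saline replicate 1.

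**Figure D3:**
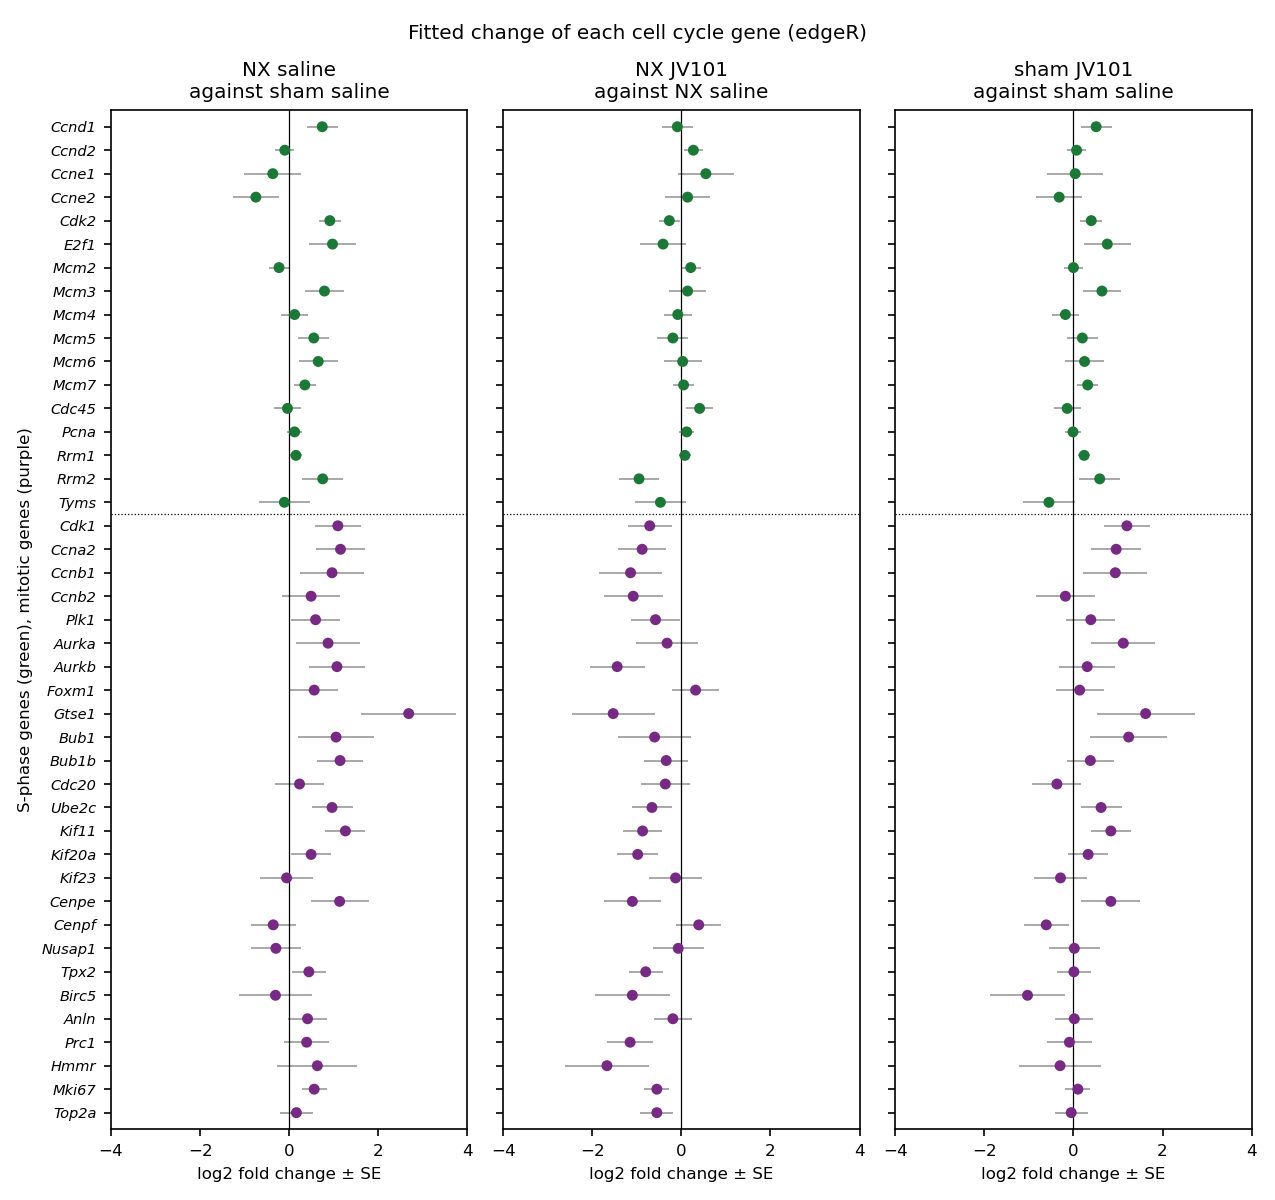
Log2 fold change ± SE (edgeR, 12 libraries in the fit) of each S-phase (green) and mitotic (purple) gene in NX saline against sham saline, NX JV101 against NX saline and sham JV101 against sham saline. Mitotic genes lie mostly right of 0 in the left panel (22 of 26) and left of 0 in the middle panel (24 of 26). The first 2 panels share the NX saline libraries, and the outer 2 share the sham saline libraries.

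NX JV101 was set against NX saline to ask what JV101 did after nephrectomy. Of the mitotic genes 24 of 26 had a log2 fold change below 0, with a median of -0.69, and 7.69% were above 0, against 51.9% of all tested genes. The S-phase genes had no common direction, with 10 of 17 (58.8%) above 0 and a median of 0.05, and the median of all tested genes was 0.01. By edgeR's quasi-likelihood test 0 members and 0 genes (0%) passed the adjusted threshold, and 2 members, both mitotic, had an unadjusted p under 0.05, as had 345 genes in all (2.39%). DESeq2 passed 8 genes and limma 0, and no member was among them. This comparison shares the NX saline libraries, with their high replicate 2, with the one above.

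Aurkb, the chromosomal passenger kinase Aurora B, had 0.272, 0.353 and 0.199 CPM in NX JV101, against 0.444, 0.862 and 0.975 CPM in NX saline. Counts were 8, 15 and 8 in NX JV101 and 14, 30 and 18 in NX saline, without overlap on the CPM scale, and the log2 fold change was -1.44 (SE 0.62, unadjusted p = 0.04, adjusted p = 1 by edgeR). Prc1, which bundles the microtubules of the central spindle, had 0.477, 0.895 and 0.723 CPM in NX JV101, against 1.05, 2.13 and 1.52 CPM in NX saline (log2 fold change -1.15, SE 0.51, unadjusted p = 0.0458 by edgeR). Its groups were also separate.

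Tpx2, which activates Aurora A on the spindle, had 0.715, 0.683 and 0.723 CPM in NX JV101, against 1.08, 1.47 and 1.14 CPM in NX saline, without overlap (log2 fold change -0.8, SE 0.38, unadjusted p = 0.0579 by edgeR). Kif20a, a cytokinesis kinesin, had 0.817, 0.566 and 0.673 CPM in NX JV101, against 1.39, 1.9 and 0.704 CPM in NX saline, where replicate 3 lay within the NX JV101 range (log2 fold change -0.98, SE 0.46, unadjusted p = 0.054 by edgeR). Both genes varied less among the NX JV101 libraries than among the NX saline libraries.

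In total 8 mitotic genes were lower in CPM in every NX JV101 library than in every NX saline library, 30.8% of the list against 3.69% of all tested genes: Ccna2, Aurkb, Ube2c, Kif11, Cenpe, Tpx2, Prc1 and Mki67. None was higher without overlap (0% against 4.52%). The separation depended on the scaling, since on the deposited FPKM all 8 overlapped between the groups. There Mki67 had 0.28, 0.47 and 0.393 in NX JV101, against 0.372, 0.598 and 0.366 in NX saline. The share of all tested genes without overlap on FPKM was not counted. Mki67, the mitotic gene with the most counts after Cenpf, had 3, 3.84 and 3.17 CPM in NX JV101, against 3.96, 5.4 and 5.36 CPM in NX saline. The genes above 0 were Foxm1, the transcription factor of the mitotic program, at 0.32 (SE 0.52), and Cenpf at 0.39 (SE 0.5). Without NX saline replicate 2 the mitotic median was -0.44, and 7 of 26 genes were above 0.

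The S-phase gene with the smallest p was Rrm2, with 0.954, 0.895 and 0.947 CPM in NX JV101, against 1.84, 2.64 and 0.867 CPM in NX saline. NX saline replicate 3 was below all 3 NX JV101 libraries, and the log2 fold change was -0.95 (SE 0.45, unadjusted p = 0.0596 by edgeR). Cdc45, part of the active helicase, was the only S-phase gene without overlap, with 1.63, 1.18 and 1.37 CPM in NX JV101, against 0.982, 1.03 and 1.14 CPM in NX saline (log2 fold change 0.41, SE 0.3, unadjusted p = 0.202 by edgeR), 5.88% of the list against 4.52% of all tested genes. Ccnd2 had 83.7, 67.2 and 90.5 CPM in NX JV101, against 79.3, 59.8 and 60.9 CPM in NX saline, with overlap (log2 fold change 0.27, SE 0.21, unadjusted p = 0.219 by edgeR).

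Cdk2, the member with the smallest p in NX saline against sham saline, had 6.81, 6.41 and 6.43 CPM in NX JV101, against 6.34, 7.5 and 9.97 CPM in NX saline, with overlap. Its log2 fold change was -0.27 (SE 0.24, unadjusted p = 0.287 by edgeR). The sign depended on the scaling: on the deposited FPKM, which divide by library totals that include the mitochondrial genes, it was 0.06 with a pseudocount of 1 and 0.08 with a pseudocount of 0.1. On the same scales the median of all tested genes was 0.21 and 0.32, so that relative to all genes Cdk2 was at -0.15 and -0.24.

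**Figure D4:**
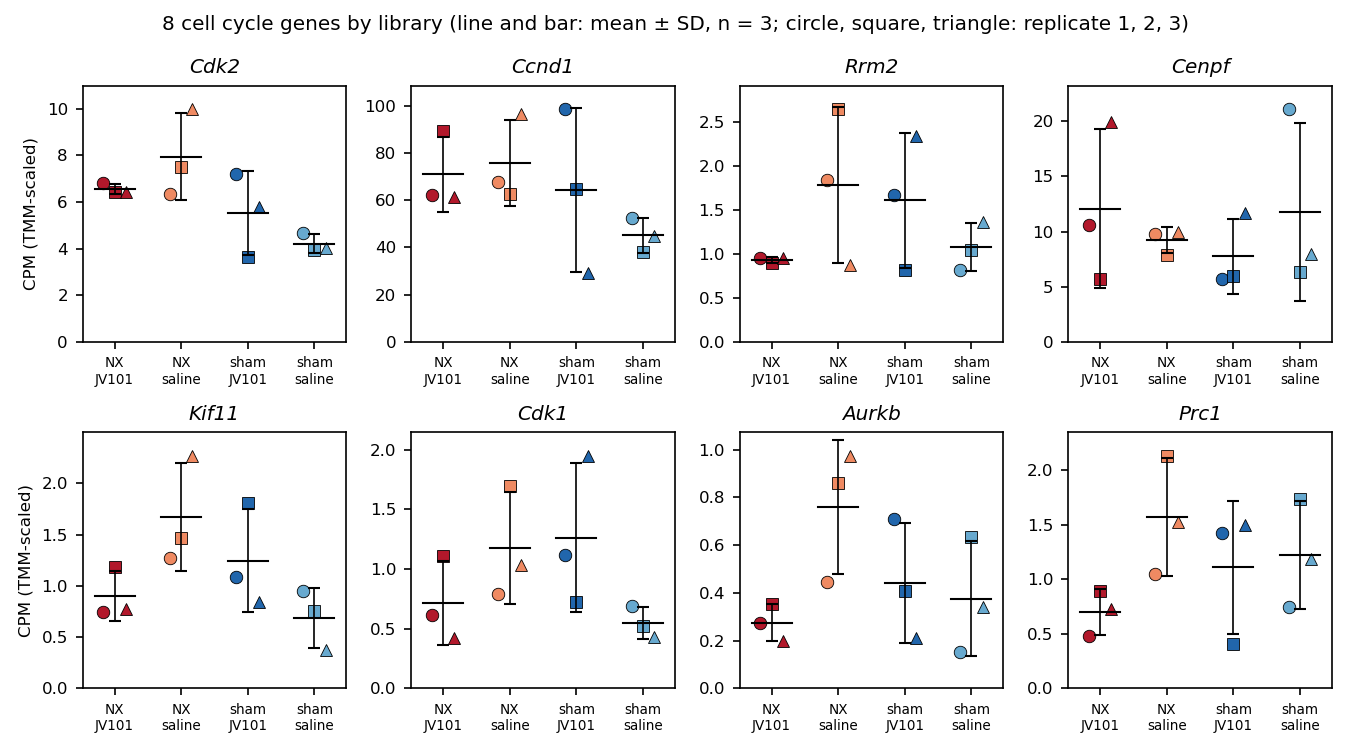
CPM of 8 cell cycle genes by library in the 4 groups, with group mean and SD (n = 3), each axis starting at 0. Cdk2 and Kif11 of NX saline lie above all sham saline libraries, Aurkb and Prc1 of NX JV101 lie below all NX saline libraries, and Cenpf is high in NX JV101 replicate 3 and sham saline replicate 1.

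In sham-operated mice the effect of JV101 was read from sham JV101 against sham saline. The mitotic median was 0.23 with 18 of 26 genes (69.2%) above 0, the S-phase median was 0.2 with 11 of 17 (64.7%) above 0, and 55.6% of all tested genes were above 0 with a median of 0.03. By edgeR 0 members and 0 genes (0%) passed the adjusted threshold, 1 member and 245 genes (1.7%) had an unadjusted p under 0.05, and DESeq2 and limma passed 0 genes. Leaving out sham JV101 replicate 1 turned the mitotic median to -0.11. The sham saline libraries are shared with the first comparison.

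Cdk1 had 1.12, 0.723 and 1.95 CPM in sham JV101, against 0.691, 0.52 and 0.433 CPM in sham saline. The groups did not overlap, and the log2 fold change was 1.2 (SE 0.51, unadjusted p = 0.0359, adjusted p = 1 by edgeR). Rrm1 was the other gene without overlap, with 11.6, 10.8 and 9.7 CPM in sham JV101, against 9.01, 9.12 and 9.19 CPM in sham saline (log2 fold change 0.24, SE 0.13, unadjusted p = 0.0917 by edgeR). The 2 genes were 5.88% of the S-phase and 3.85% of the mitotic list, against 1.76% of all tested genes higher and 2.07% lower without overlap.

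Kif11 and Ccna2, the cyclin A2 gene, followed, with log2 fold changes of 0.84 (SE 0.45) and 0.96 (SE 0.56), and both overlapped. Cdk2 stood at 0.4 (SE 0.25) and Mcm3 at 0.64 (SE 0.42), also with overlap. For Mcm3 sham JV101 replicate 1 had 7.55 CPM, the highest of the 12 libraries, and replicate 3 had 1.77 CPM, the lowest. Without sham JV101 replicate 3 its change was 1.04 and without replicate 1 it was 0.14.

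Between the JV101-injected groups, NX JV101 against sham JV101, the mitotic genes lay mostly below 0, with 6 of 26 (23.1%) above 0 and a median of -0.39, and the S-phase genes mostly above, with 12 of 17 (70.6%) and a median of 0.14. Of all tested genes 50.6% were above 0, with a median of 0. By edgeR 0 members passed at the adjusted threshold (0% of all genes) and 0 had an unadjusted p under 0.05, as 299 genes had in all (2.07%); DESeq2 and limma passed 0 genes. Cdc45 alone was without overlap, with 1.63, 1.18 and 1.37 CPM in NX JV101, against 0.875, 1.17 and 0.898 CPM in sham JV101 (log2 fold change 0.51, SE 0.3, unadjusted p = 0.119, adjusted p = 0.999 by edgeR), where 2.69% of all tested genes were higher and 2.42% lower. Lower values in NX JV101 were fitted for Ccnb1, the cyclin B1 gene, at -1.12 (SE 0.71), Cdk1 at -0.82 (SE 0.49), Kif20a at -0.82 (SE 0.46) and Rrm2 at -0.79 (SE 0.45), and a higher one for Pcna at 0.25 (SE 0.17). All of these overlapped between the groups. The S-phase median moved to -0.02 with sham JV101 replicate 3 left out, and to 0.34 when sham JV101 replicate 1 was left out instead.

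Whether nephrectomy acted differently under JV101 was tested directly by the interaction, the log2 change with nephrectomy under JV101 minus that under saline. Its median was -1.01 for the mitotic genes, with 4 of 26 (15.4%) above 0, and -0.15 for the S-phase genes, with 8 of 17 (47.1%) above 0, against 46% of all tested genes above 0 and a median of -0.03. By edgeR 0 members and 0 genes (0%) passed the adjusted threshold, and DESeq2 and limma also passed 0. At an unadjusted p under 0.05 there were 4 members, 1 S-phase and 3 mitotic, against 256 genes (1.78%).

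The mitotic genes with the smallest p in the interaction were Kif11 and Cdk1. For Cdk1 it was -1.91 (SE 0.71, unadjusted p = 0.0196, adjusted p = 1 by edgeR), with group means of 0.715 ± 0.353 CPM in NX JV101, 1.17 ± 0.469 in NX saline, 1.26 ± 0.624 in sham JV101 and 0.548 ± 0.131 in sham saline (SD, n = 3 each). For Kif11 it was -1.71 (SE 0.63, unadjusted p = 0.0189 by edgeR). The S-phase genes with the smallest p were Rrm2 with -1.54 (SE 0.64, unadjusted p = 0.0346 by edgeR) and Cdk2 with -0.67 (SE 0.35, unadjusted p = 0.0799 by edgeR). More negative values with larger p were fitted for Gtse1 at -3.15, Ccnb1 at -2.08 and Cenpe at -1.94. The means of NX saline and sham JV101 were above those of both other groups for Cdk1, Kif11 and Rrm2, and Cdk2 was not of this form, with 6.55 ± 0.226 CPM in NX JV101, 7.94 ± 1.85 in NX saline, 5.53 ± 1.8 in sham JV101 and 4.21 ± 0.411 in sham saline (SD, n = 3 each). Without NX saline replicate 2 the mitotic interaction median was -0.67.

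Over all 4 groups at once edgeR passed 0 members and 0 genes (0%), with 1 member and 319 genes (2.21%) at an unadjusted p under 0.05, and DESeq2 passed 11 genes, none of them a member. The member was Cdk2 (unadjusted p = 0.0219, adjusted p = 1 by edgeR), followed among the S-phase genes by Rrm2 (unadjusted p = 0.168) and Mcm3 (unadjusted p = 0.214). The mitotic genes with the smallest values were Kif11 (unadjusted p = 0.0728 by edgeR), Cdk1 (unadjusted p = 0.104) and Gtse1 (unadjusted p = 0.126).

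The S-phase genes Ccnd1, Mcm3 and Mcm6 shared their highest and lowest libraries with the endothelial markers. The endothelial sum was 700, 1350 and 861 CPM in NX JV101, 464, 882 and 1420 in NX saline, 1300, 841 and 255 in sham JV101 and 797, 548 and 505 in sham saline, so that NX saline replicate 3, NX JV101 replicate 2 and sham JV101 replicate 1 were highest and sham JV101 replicate 3 was lowest. For Ccnd1, Mcm3 and Mcm6 the same 3 libraries were the highest, in varying order, and the same library the lowest. This held for 3 of 17 S-phase genes (17.6%), for 1 of 26 mitotic genes, Kif23 (3.85%), and for 8.76% of all tested genes. The 8 fibroblast markers had the same 3 highest libraries and the same lowest, with 1180, 2640 and 1380 CPM in NX JV101, 899, 1500 and 1520 in NX saline, 2480, 1100 and 466 in sham JV101 and 738, 1100 and 1300 in sham saline. The 8 cardiomyocyte markers ran the other way. Their sum was lowest in NX saline replicate 3 (38500 CPM), NX JV101 replicate 2 (31800) and sham JV101 replicate 1 (31400), and highest in sham JV101 replicate 3 (60100). The order was thus not particular to endothelial markers.

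Mcm6 had 4.36, 9.97 and 6.93 CPM in NX JV101, 4.94, 6.76 and 9.32 in NX saline, 8.92, 4.61 and 2.34 in sham JV101 and 4.5, 4.21 and 4.61 in sham saline, and Ccnd1 spread between 29.3 CPM in sham JV101 replicate 3 and 98.6 CPM in sham JV101 replicate 1. Both ranges were wider within sham JV101 than the difference between any 2 group means. Cdk2 did not share these extremes, with its lowest value of 3.62 CPM in sham JV101 replicate 2. The part of endothelial cells or fibroblasts in these values was not tested.

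**Figure D5:**
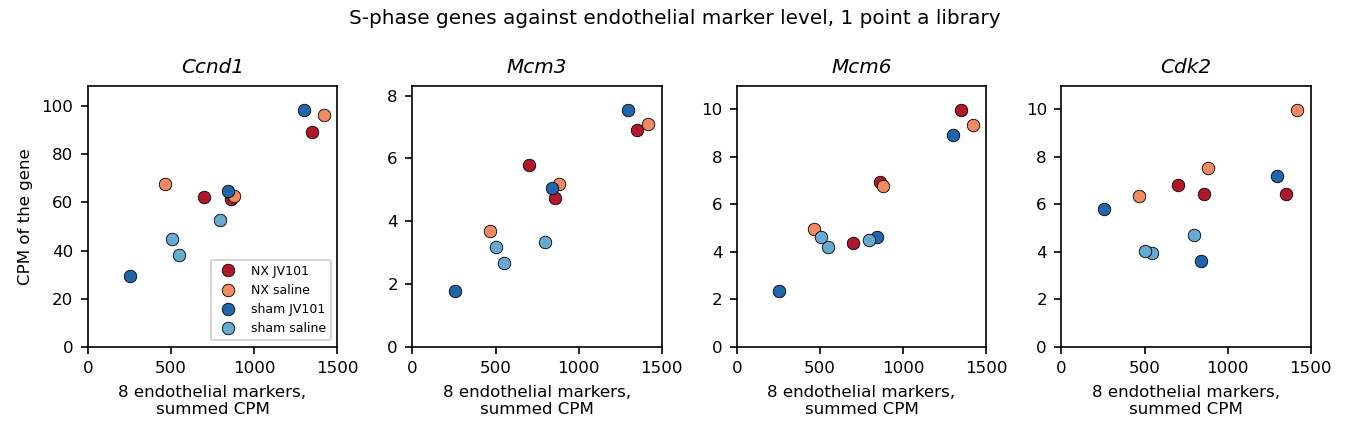
CPM of Ccnd1, Mcm3, Mcm6 and Cdk2 against the summed CPM of 8 endothelial markers, 1 point per library, coloured by group. For Ccnd1, Mcm3 and Mcm6 the 3 libraries with endothelial sums of 1300 to 1420 CPM are highest and the library with 255 CPM is lowest; for Cdk2 this does not hold.

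For Cenpf and Ccnd2 the 4 highest libraries were the same, a match noticed after the values were seen. How many of all tested genes share it was not counted, so it is not a link between the 2 genes. Cenpf had 21.1 CPM in sham saline replicate 1, 19.9 in NX JV101 replicate 3, 11.7 in sham JV101 replicate 3 and 10.6 in NX JV101 replicate 1, and between 5.66 and 10 CPM in the other 8 libraries. Ccnd2 had 91.7, 90.5, 89.5 and 83.7 CPM in those 4 libraries and 58.4 to 79.3 CPM in the others. Cenpf was thus highest where most other mitotic genes were not: the other 25 mitotic genes summed to 16.8 CPM in sham saline replicate 1 and 18.1 CPM in NX JV101 replicate 3, against 36.2 CPM in NX saline replicate 2. With 109 to 823 counts a library Cenpf gave between 16.7% and 55.6% of all mitotic counts.

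The promoters of both arms were searched for letters known from cell cycle genes: CCAAT, the CHR letters TTTGAA, and the E2F letters TTNNCGC in which each N was C or G, on both strands of the 250 bases before the start. RefSeq promoters of the GRCm38.p6 build were at hand for 13 S-phase and 21 mitotic genes. Ccnd1, Ccnd2, Ccne2, Mcm4, Ccna2, Aurkb, Foxm1, Kif20a and Tpx2 had no entry. Only the first listed start of each gene was used. The bases just after it were found in a transcript of the same gene for 23 of 34 members. For the remaining members the searched bases may not be a promoter, so a missing match there may not describe one. CCAAT was found in 10 of 13 S-phase promoters (76.9%) and 18 of 21 mitotic promoters (85.7%), against 34.5% of all 27025 promoters. E2F letters were found in 6 of 13 S-phase (46.2%) and 4 of 21 mitotic promoters (19%), against 7.97% of all. CHR letters were found in 2 of 13 S-phase (15.4%) and 7 of 21 mitotic promoters (33.3%), against 16.3% of all, and in both arms each promoter with CHR letters also held CCAAT; 5.73% of all promoters held both. In Ccnb1 an E2F and a CCAAT match shared bases, and no other member had motifs of different kinds that overlapped.

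The 150 bases before the start are shown for genes of each arm that had an entry, namely the most abundant and those with the smallest 4-group p. No member passed that 4-group test by edgeR at the adjusted threshold. Sequences run 5′ to 3′ along the gene, with motif letters in capitals (CCAAT or its complement ATTGG, CHR as TTTGAA or TTCAAA, E2F as TTCGCGC or the complement GCGGGAA of TTCCCGC). Cdk1 was added after its values were seen.
Pcna, chr2:132253181-132253330, minus strand: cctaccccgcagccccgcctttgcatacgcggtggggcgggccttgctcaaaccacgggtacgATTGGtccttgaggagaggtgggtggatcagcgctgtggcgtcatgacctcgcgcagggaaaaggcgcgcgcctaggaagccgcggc
Cdk2, chr10:128705052-128705201, minus strand: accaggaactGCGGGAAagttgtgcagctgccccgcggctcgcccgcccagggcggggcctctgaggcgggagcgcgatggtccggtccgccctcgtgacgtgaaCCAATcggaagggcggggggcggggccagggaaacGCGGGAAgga
Cenpf, chr1:189688087-189688236, minus strand: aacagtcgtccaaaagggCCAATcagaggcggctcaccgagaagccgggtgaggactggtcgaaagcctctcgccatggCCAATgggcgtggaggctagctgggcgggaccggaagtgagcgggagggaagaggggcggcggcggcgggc
Ube2c, chr2:164769779-164769928, plus strand: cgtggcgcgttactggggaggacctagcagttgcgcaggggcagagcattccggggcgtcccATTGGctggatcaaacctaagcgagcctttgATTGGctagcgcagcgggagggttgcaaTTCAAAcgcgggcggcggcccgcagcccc
Kif11, chr19:37376232-37376381, plus strand: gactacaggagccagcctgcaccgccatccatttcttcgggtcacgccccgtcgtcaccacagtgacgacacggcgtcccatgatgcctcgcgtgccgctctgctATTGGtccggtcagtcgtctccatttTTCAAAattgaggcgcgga
Cdk1, chr10:69352913-69353062, minus strand: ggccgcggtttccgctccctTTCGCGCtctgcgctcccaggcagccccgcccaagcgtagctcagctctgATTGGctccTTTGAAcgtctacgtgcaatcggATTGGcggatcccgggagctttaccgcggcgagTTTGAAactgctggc
Cdk2, the S-phase gene with the smallest p over the 4 groups, had E2F letters at 140 and 10 bases before the start and CCAAT at 45. Kif11, its mitotic counterpart, had CCAAT as ATTGG at 45 and CHR letters as TTCAAA at 19 bases before the start, and Ube2c and Cdk1 also held CCAAT and CHR letters. Cenpf held 2 CCAAT matches and no CHR letters, which were absent from most mitotic promoters searched, among them those of Bub1, Plk1 and Prc1. A match describes the letters and does not show that a factor bound there.

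Other genes of the same pathways were described in the same way. In NX saline against sham saline 22 of 32 tested other replication genes and 28 of 32 tested other mitosis genes had log2 fold changes above 0 (52.9% of all tested genes), with medians of 0.36 and 0.41. By edgeR 0 passed at the adjusted threshold, with 4 and 3 at an unadjusted p under 0.05 (3.64% of all tested genes). DESeq2 and limma passed 0 of them as well. The smallest p-values belonged to Dbf4, the activator of the Cdc7 kinase, at 1.13 (SE 0.42), and Prim1, the DNA primase, at 1.21 (SE 0.46), and among mitosis genes to Kif4, a chromosome kinesin, at 1.48 (SE 0.52), and Cdc25b, the phosphatase that activates Cdk1, at 1.35 (SE 0.53). In NX JV101 against NX saline 11 of 32 other replication genes and 6 of 32 other mitosis genes were above 0 (51.9% of all tested genes), with medians of -0.08 and -0.62, again with 0 passing by edgeR, DESeq2 or limma, and with 0 and 1 at an unadjusted p under 0.05 (2.39% of all tested genes). There Spag5, a spindle protein, was at -1.71 (SE 0.67), with 0.272, 0.212 and 0.349 CPM in NX JV101, against 0.38, 1.09 and 1.3 CPM in NX saline, without overlap. Incenp, the scaffold of the Aurora B complex, was at -0.62 (SE 0.28).

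A further list joined G1 kinases, their inhibitors and the pocket proteins with other E2F factors, Tfdp1, Tfdp2, Lin9, Lin54 and Meis1. It thus mixed genes upstream of E2F with E2F factors themselves. Its 23 tested genes had medians of 0.06 in NX saline against sham saline and 0.07 in NX JV101 against NX saline. Of these genes 14 and 15 were above 0, against 52.9% and 51.9% of all tested genes. By edgeR, DESeq2 and limma 0 passed at the adjusted threshold, and in either comparison 0 had an unadjusted p under 0.05. The smallest p in the first comparison was that of E2f7, a repressor among the E2F factors, at 1.25 (SE 0.59), with 0.729, 2.24 and 1.95 CPM in NX saline, against 0.691, 0.577 and 0.774 CPM in sham saline, where 1 NX saline library lay within the sham saline range. Cdkn1b, the p27 inhibitor, was named by the smallest p-values of NX JV101 against sham JV101, at 0.38 (SE 0.23).

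The exons of 13 of the 43 genes share bases with exons of another gene in the GENCODE vM21 annotation, and the sources used here do not give whether counting used strand, so reads of such pairs may not be told apart. On the opposite strand these were, among the genes above, Ccnd1 with LTO1, Ccnd2 with Gm43126, Ccne2 with Ints8, Cdc20 with Elovl1, Nusap1 with Oip5, Plk1 with Gm44985, Ccna2 with Exosc9, Cdc45 with Ufd1, Kif20a with Cdc23, Mcm7 with Ap4m1 and Cops6, Prc1 with Rccd1 and Ube2c with Tnnc2. Foxm1 shared bases with Tex52 and Gm44596 on the same strand. Cdk2, Kif11, Cdk1, Aurkb and Mki67 had no such overlap.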

How the data were processed

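RNA-seq libraries of poly(A) RNA from isolated cardiomyocytes were measured, 12 in all, in 4 groups of 3 taken from the sample labels. The authors deposited raw counts per gene and, in a second table, FPKM per gene. Reads were handled with fastp, HISAT2 and HTSeq on the GRCm39 build, per the submitters' processing notes, but not given in the sources used here are their versions, the gene annotation and whether counting was stranded. From the values, the deposited FPKM are counts divided by a gene length and by the library total, mitochondrial genes included.

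Counts were fitted with edgeR 4.0.16 in R 4.3.3 (glmQLFit and glmQLFTest, TMM factors, filterByExpr with a minimum count of 10), as a group-means model over all 12 libraries, 2-sided, with Benjamini-Hochberg adjustment over all 14412 tested genes at 0.05. The SE of a log2 fold change is its size over the root of the F statistic. CPM values are TMM-scaled, and overlap between groups was judged on this scale unless FPKM is named. Alternatives were DESeq2 1.42.0, limma 3.58.1 on log2(FPKM + 1) and log2(FPKM + 0.1), RLE factors, other filters, counts without the 13 mitochondrially encoded genes, the replicate block, fits of the compared groups only and leaving out each library. The edgeR step was tested on simulated data. Totals of 26407125 to 33834238 counts limit the precision of low genes. The mean deviation of an arm averages log2 CPM (prior count 2) minus each gene's 12-library mean.

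The members and lists were chosen with earlier results of these data known. Fold changes are given for the S-phase and the mitotic genes with the smallest unadjusted p: 4 of each in the first 2 comparisons, 3 of each in the next 2 and in the 4-group test, and 2 of each for the interaction, plus genes said to be without overlap or against their list, chosen after their values were seen. Of the other pathway lists, up to 2 genes with the smallest p were named. No column was left unmapped, and no 2 libraries of a group agreed within sampling noise.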

Additional observations from a re-analysis of the deposited data

How the results depend on the processing

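With edgeR no gene passed the adjusted threshold in any comparison, under RLE factors, without a filter, with at least 1 CPM in 3 libraries, without the mitochondrially encoded genes, with the replicate block, in fits of the compared groups only, or without any 1 library. DESeq2 passed 1 gene in NX saline against sham saline, 8 in NX JV101 against NX saline and 11 over the 4 groups, and none was a cell cycle gene.

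On the deposited FPKM the median of all tested genes moved by 0.2 (pseudocount 1) and 0.31 (pseudocount 0.1) in NX JV101 against NX saline and by 0.11 and 0.18 in NX JV101 against sham JV101. With pseudocount 1 the mitotic medians were 0.11 in NX saline against sham saline, -0.07 in NX JV101 against NX saline, -0.04 in NX JV101 against sham JV101 and -0.12 for the interaction, and the S-phase interaction median was 0.08. With pseudocount 0.1 the mitotic medians were -0.3 in NX JV101 against NX saline, -0.11 in NX JV101 against sham JV101 and -0.48 for the interaction, and the S-phase medians were 0.35, 0.29 and 0.15. The pseudocount shrinks differences of low genes by construction. Relative to all genes the mitotic median of NX JV101 against NX saline was -0.29 and -0.62. Cdk2 reversed in that comparison, to 0.06 and 0.08, and relative to all genes it was -0.15 and -0.24. With at least 1 CPM in 3 libraries, which keeps 12 mitotic genes, their interaction median was -0.73.

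Leaving out each library gave mitotic medians of 0.23 to 0.79 (NX saline against sham saline), -0.9 to -0.44 (NX JV101 against NX saline), -0.11 to 0.37 (sham JV101 against sham saline), -0.51 to -0.18 (NX JV101 against sham JV101) and -1.34 to -0.67 (interaction). The S-phase medians were 0.1 to 0.31, -0.07 to 0.1, 0.06 to 0.26, -0.02 to 0.34 and -0.29 to 0.08 in the same order, so their sign was not stable in 3 of the 5. Shifts of these medians beyond the spread within groups came from leaving out NX saline replicate 2 or 3, any sham JV101 replicate, sham saline replicate 1 or NX JV101 replicate 1, and the cause was not tested.

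The replicate numbers gave no visible pairing: deviations of libraries with the same number correlated between -0.503 and 0.25. Those of libraries with different numbers correlated between -0.541 and 0.546. These values do not show whether libraries were prepared together. With the replicate block the mitotic medians were 0.63 in NX saline against sham saline and -0.68 in NX JV101 against NX saline, and 0 genes passed. With few counts per mitotic gene and 3 libraries a group, a member that misses the threshold is not shown to be equal between groups.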
